A study of Mus musculus with 6 samples.

Results

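Gap junction and intercalated disc genes were examined in mouse heart ventricles after chronic sleep fragmentation. The 10 members are Gja1, Gja5 and Gjc1 (connexins), Dsp, Pkp2 and Jup (desmosomal plaque), Dsg2 and Dsc2 (desmosomal cadherins), Cdh2 (the adherens junction cadherin) and Tjp1 (a junctional scaffold). They were chosen by name, and every probe whose RefSeq accession belongs to one of them was taken, which gave 14 of the 39429 non-control probes on the array. All 14 passed the filter on dim signal, so all 10 genes were measured, of 14548 named genes with such a probe in all. Gja5, Dsp, Dsg2 and Cdh2, 4 of the 10, have 2 probes each.

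Total RNA came from the ventricles of female C57BL/6N mice, an inbred laboratory strain, aged 21 weeks. One group of 3 samples came from mice whose sleep had been fragmented for 5 weeks, and 3 control samples came from mice left undisturbed; no genetic change or drug is given for either group. Each sample was hybridised to 1 single-colour Agilent array. The titles of the controls also carry the words for sleep fragmentation, so the group was read from the end of each title. The labels do not say whether each sample is a different animal. The p-values therefore reflect sample-to-sample spread alone, and that spread may be technical.

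An intercalated disc joins the ends of neighbouring heart muscle cells. Its gap junctions are channels built from connexins that pass the electrical impulse from cell to cell, its desmosomes tie the intermediate filaments of both cells together, and its adherens junctions tie their actin filaments. In ventricular muscle these structures intermix, and loss of desmosomal or connexin function is known from human and mouse hearts to disturb conduction.

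Sleep fragmented replicate 1 was the dimmest array: 59.2% of its probes stood well above background (up to 72.6% elsewhere), and its 75th percentile of intensity was 123, where the remaining 5 arrays had 204 to 252. Markers of ventricular muscle were bright, with Myh6 (alpha myosin heavy chain) at 7.97, 7.17 and 7.39 in sleep fragmented samples and 7.31, 7.08 and 7.38 in controls. Here and below, a level is the log2 processed spot signal minus the array's 75th percentile, a scale on which probes of different genes are not compared. Signal of an atrial gene differed widely between the arrays, all labelled ventricle. Myl4, the atrial light chain, stood at -0.05, 7.46 and 4.42 in sleep fragmented samples and at -0.12, 6.996 and 4.03 in controls. Replicates 2 and 3 of both groups thus carried far more of it than replicate 1. Relative to the control mean, the measured atrial and conduction markers averaged -0.70, 1.91 and 0.18 in sleep fragmented samples. In controls they averaged -0.89, 1.03 and -0.14, so as a list they were high on replicate 2 alone. The part of atrial tissue was not tested. One scan covered the sleep fragmented arrays and a different scan the controls, so scan and group cannot be told apart in any difference given here. The headers give 3 array positions, each holding 1 array of each group with the same replicate number, and differences within them are given in that order. In whole tissue, fewer cells of a type and less RNA per cell cannot be told apart.

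Gja1, the main connexin of ventricular muscle, was the only member of 10 whose arrays did not overlap between the groups. Of all named genes, 7.62% had no overlap, in either direction. No member passed the test across all probes. The others lay between a log2 fold change of -0.17 for Pkp2 and 0.26 for Dsg2, sleep fragmented over control. By limma with Benjamini-Hochberg adjustment over 25219 tested probes, 0 of the 14 member probes had an adjusted p under 0.05, against 0 (0.0%) of all probes, and the smallest adjusted p of any probe was 0.552. At an unadjusted p under 0.05 there was 1 member probe of 14, that of Gja1, against 735 (2.91%) of all probes; 1.01% of all probes were lower in sleep fragmented samples at that threshold and 1.9% were higher. The median log2 fold change of the 10 genes was 0.0078, with 5 negative and 5 positive values, against a median of 0.05 over all 14548 named genes, 41.3% of which were negative. None of the 10 differed by 1.5-fold or more, which 3.62% of named genes did.

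**Figure D1:**
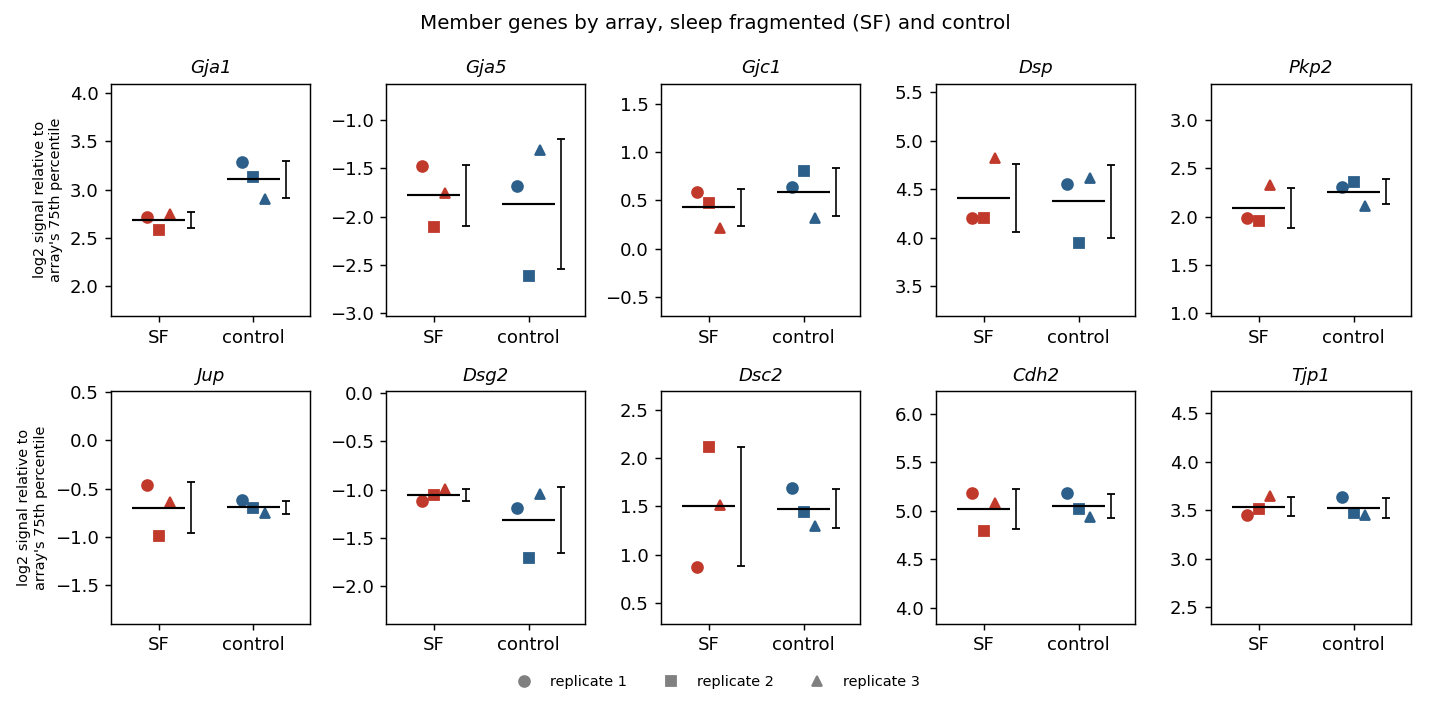
Levels of the 10 member genes on each array (log2 signal relative to the array's 75th percentile, the probe with the brightest mean signal for each gene), with sleep fragmented (SF) samples in red left of controls in blue. Every panel spans 2.4 log2 units, lines are group means, bars are the SD over 3 arrays, and marker shapes give the replicate number. Gja1 is the only panel in which the groups do not overlap, and the widest spread is that of Dsc2 in the sleep fragmented group and of Gja5 in the control group.

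Gja1 encodes connexin 43, which forms the gap junctions between working ventricular cells. Its level was 2.72, 2.59 and 2.75 in the sleep fragmented samples, against 3.28, 3.13 and 2.91 in the controls. No sleep fragmented array reached the lowest control, and the nearest pair, sleep fragmented replicate 3 and control replicate 3, differed by 0.16. The group means were 2.68 ± 0.085 in sleep fragmented samples and 3.11 ± 0.19 in controls (SD, n = 3 each), a log2 fold change of -0.42 ± 0.18 (SE), or 1.34-fold lower. The unadjusted limma p was 0.0458, the 95% interval ran from -0.83 to -0.0098, and the adjusted p was 0.938, so Gja1 did not pass. Of all named genes, 2.62% had a smaller unadjusted p. A two-sided exact permutation test gave p = 0.1, and no smaller value is possible with 3 arrays in each group. Groups that do not overlap with the sleep fragmented arrays lower were found for 3.97% of named genes, and in either direction for 7.62%.

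The Gja1 probe is printed at 10 places on the array, which shows how precise each array's value is. After outlier spots were left out, 8 to 10 spots remained per array, and their SD within an array was 0.08 to 0.18. The standard error of an array's mean was therefore at most 0.057. The 26 sleep fragmented spots ranged from 2.42 to 3.03 and the 28 control spots from 2.79 to 3.56. The spots thus overlap, mainly between sleep fragmented replicate 3 and control replicate 3, while the array means do not. Within array positions the differences were -0.57, -0.54 and -0.16, all negative, with the smallest at the position of replicate 3.

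**Figure D2:**
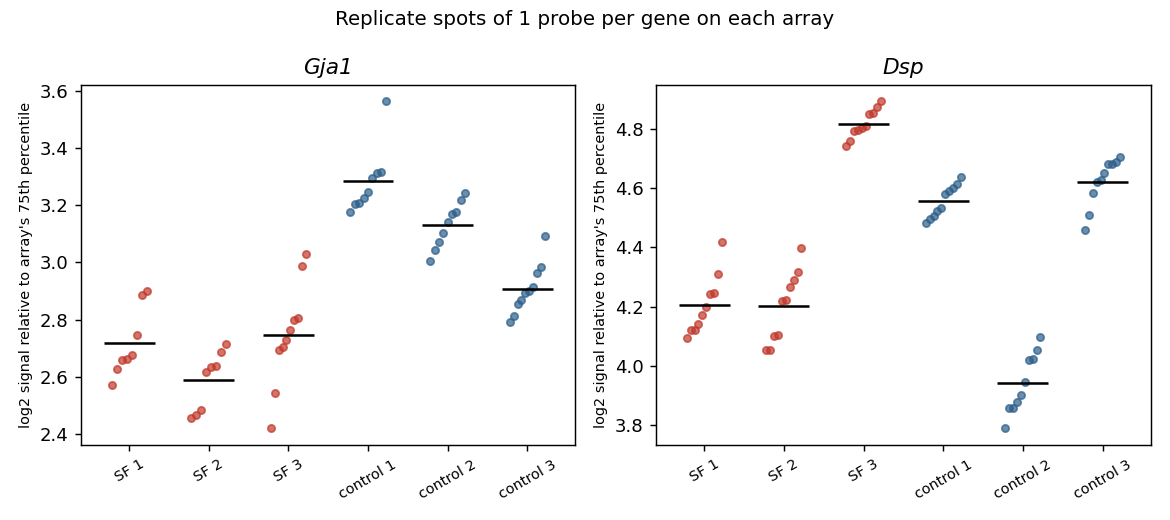
Single spots of the repeated probes of Gja1 (left) and Dsp (right) on each array, as log2 signal relative to the array's 75th percentile, with sleep fragmented (SF) arrays in red left of controls in blue and the array mean as a line. For Gja1 the 3 sleep fragmented means lie below the 3 control means, whereas for Dsp the arrays of each group are split and the lowest mean is that of control replicate 2.

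The size of the Gja1 difference and its p moved when single arrays were left out, which also leaves fewer arrays to test. With single arrays left out the log2 fold change lay between -0.52 and -0.33, and the unadjusted p was at or above 0.05 in 5 of the 6 such fits, the exception being the fit without control replicate 3, where limma gave an adjusted p of 0.408. Of the 10 genes of the heart muscle marker list, 7 had positive log2 fold changes, and the list's median was 0.15. Relative to the control mean, the list lay at 0.44, -0.23 and 0.07 on the sleep fragmented arrays and at 0.09, -0.18 and 0.09 on the controls. Both the highest and the lowest array were thus sleep fragmented. The part of muscle content in the Gja1 difference was not tested. Taken relative to that list on each array, Gja1 stood at 2.28, 2.82 and 2.68 in sleep fragmented samples and at 3.19, 3.31 and 2.82 in controls, a difference of -0.51; on this scale, chosen after seeing the data, sleep fragmented replicate 2 reached the level of control replicate 3.

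The stretch around the start of Gja1 is shown because Gja1 was the member that separated the groups, and that of Gja5 as a connexin that did not. Both were read from RefSeq for GRCm38.p6, and such windows of Dsp, Jup and Tjp1 were searched too. The remaining members were not searched. Capitals mark matches, on either strand, to 4 motifs: TGANTCA (bound by AP-1), CACGTG (the E-box of clock and other factors), GGGCGG (bound by Sp1) and AGGTGTGA (bound by T-box factors). The lines run 5′ to 3′ on the gene's strand from 250 bases before the start to 50 after it, at chr10:56377050-56377349 and chr3:97032152-97032451, both on the plus strand.
Gja1: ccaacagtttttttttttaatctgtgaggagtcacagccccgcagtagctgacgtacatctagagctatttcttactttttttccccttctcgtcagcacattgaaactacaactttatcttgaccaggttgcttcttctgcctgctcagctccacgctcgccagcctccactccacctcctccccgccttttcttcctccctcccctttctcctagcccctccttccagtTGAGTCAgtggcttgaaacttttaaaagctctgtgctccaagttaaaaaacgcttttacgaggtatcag
Gja5: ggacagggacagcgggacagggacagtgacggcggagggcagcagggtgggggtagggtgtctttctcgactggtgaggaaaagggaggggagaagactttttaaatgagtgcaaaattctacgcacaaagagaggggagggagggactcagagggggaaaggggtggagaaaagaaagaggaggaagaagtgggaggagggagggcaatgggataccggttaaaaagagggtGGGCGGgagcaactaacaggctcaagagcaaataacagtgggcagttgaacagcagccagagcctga
The Gja1 window held 1 match to TGANTCA, a motif found in 7.81% of 32851 RefSeq promoter windows of this length, and none to the other 3. The Gja5 window held 1 match to GGGCGG, which 35.7% of windows hold. CACGTG (7.15% of windows) and AGGTGTGA (1.28%) were in none of the windows of the 5 members that were searched. A match is a string of letters and was not tested as a binding site.

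Gja5 encodes connexin 40, which in the heart is found in atrial muscle, the conduction system and arterial endothelium. Its 2 probes gave different patterns over the arrays. The brighter probe stood at -1.48, -2.11 and -1.75 in sleep fragmented samples and at -1.69, -2.62 and -1.31 in controls, so replicate 2 was the lowest array of each group and the groups overlapped. Its log2 fold change was 0.09 ± 0.33 (95% interval -0.65 to 0.84, adjusted p = 0.971 by limma). Its sign turned with quantile normalization (-0.12) and with median scaling (-0.12). The dimmer probe stood at -2.49, -0.19 and -2.66 in sleep fragmented samples and at -2.67, -1.08 and -2.50 in controls, so replicate 2 was the highest array of each group. It was not well above background on 1 of the 3 sleep fragmented arrays, and its log2 fold change of 0.30 ± 0.65 was the least precise of the 14 probes.

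The arrays on which the dimmer Gja5 probe was high were also those highest in atrial and fat markers. Myl7, another atrial light chain, stood at -2.81, 3.56 and -1.18 in sleep fragmented samples and at -3.26, 2.51 and -1.28 in controls. Adipoq, the adipocyte hormone adiponectin, stood at -2.65, 2.87 and -1.44 in sleep fragmented samples and at -2.97, 1.97 and -0.74 in controls. Of the atrial and conduction list, 10 of 15 markers were measured; relative to the control mean, the list ranged from -0.70 to 1.91 in sleep fragmented samples and from -0.89 to 1.03 in controls. The pacemaker channel gene Hcn4 was among the 5 that did not pass the filter on dim signal. Of the fat list 5 of 8 were measured, with a range of -1.19 to 2.58 in sleep fragmented samples and -1.82 to 1.79 in controls. Myl7 and Adipoq were themselves well above background on 2 of the 3 sleep fragmented arrays and on all 3 controls. The part of these tissues in the values of either Gja5 probe was not tested.

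**Figure D3:**
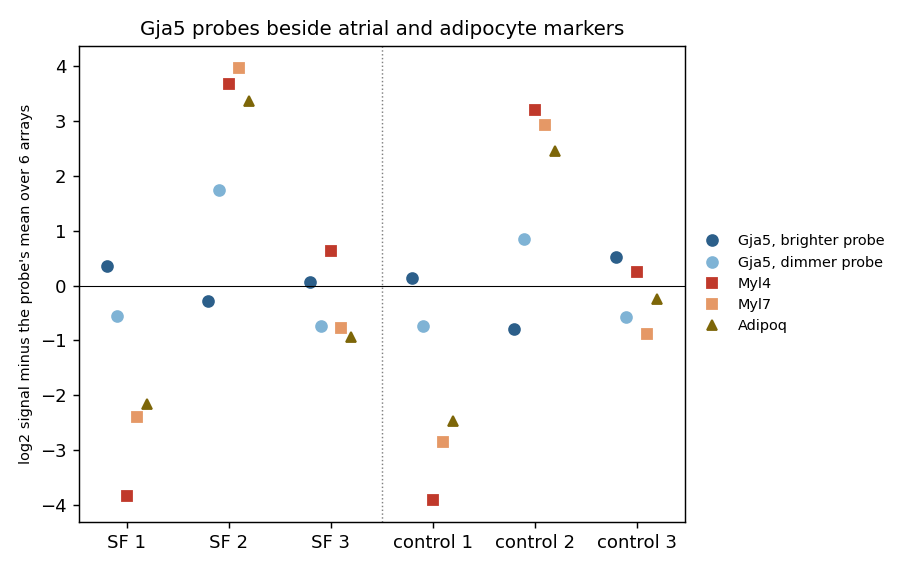
Levels of both Gja5 probes, the atrial markers Myl4 and Myl7 and the adipocyte marker Adipoq on each array, as log2 signal minus each probe's own mean over the 6 arrays, with sleep fragmented (SF) arrays left of the dotted line and controls right of it. On replicate 2 of both groups the dimmer Gja5 probe and the 3 markers lie above 0, and the brighter Gja5 probe lies below 0.

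Gjc1 encodes connexin 45, the connexin of the early heart and of nodal cells, present at low levels in working muscle. Its level was 0.59, 0.48 and 0.22 in sleep fragmented samples and 0.64, 0.80 and 0.31 in controls. The log2 fold change of -0.16 ± 0.20 did not pass (95% interval -0.62 to 0.30, adjusted p = 0.940 by limma). The groups overlapped through control replicate 3 alone, since both other controls lay above all sleep fragmented arrays. All 3 within-position differences were negative (-0.06, -0.33 and -0.10).

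Dsp encodes desmoplakin, which links the desmosomal plaque to the intermediate filament desmin. Its repeated probe, measured at 10 spots on every array, stood at 4.21, 4.20 and 4.82 in sleep fragmented samples and at 4.56, 3.94 and 4.62 in controls. The arrays of each group were split, with control replicate 2 the lowest and sleep fragmented replicate 3 the highest of the 6. The spot SD of 0.05 to 0.12 within an array was smaller than the SD between arrays, 0.35 in sleep fragmented samples and 0.37 in controls. The log2 fold change was 0.04 ± 0.26 (95% interval -0.55 to 0.62, adjusted p = 0.987 by limma). A dimmer probe of Dsp gave 0.00089 ± 0.23.

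Pkp2 encodes plakophilin-2, an armadillo protein of the plaque whose variants are a frequent cause of arrhythmogenic cardiomyopathy in humans. It stood at 1.99, 1.96 and 2.32 in sleep fragmented samples and at 2.31, 2.36 and 2.11 in controls. Sleep fragmented replicates 1 and 2 lay below all controls, while replicate 3 lay above control replicates 1 and 3. The log2 fold change of -0.17 ± 0.19 did not pass (95% interval -0.59 to 0.26, adjusted p = 0.938 by limma). Within positions the differences were -0.32, -0.40 and 0.21, so their sign was not shared.

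Jup encodes plakoglobin, an armadillo protein that binds cadherins in both desmosomes and adherens junctions. It stood at -0.47, -0.99 and -0.64 in sleep fragmented samples and at -0.62, -0.70 and -0.76 in controls, the sleep fragmented arrays spreading above and below the controls. The SD was 0.26 in the sleep fragmented group and 0.067 in the control group, and the log2 fold change was -0.0022 ± 0.19 (95% interval -0.44 to 0.44).

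The desmosomal cadherins Dsg2 (desmoglein-2) and Dsc2 (desmocollin-2) bridge the gap between the cells. The brighter Dsg2 probe stood at -1.11, -1.06 and -0.995 in sleep fragmented samples and at -1.19, -1.70 and -1.05 in controls. The sleep fragmented arrays lay close together, and control replicate 2 was the lowest of the 6; without it the log2 fold change was 0.065. Both Dsg2 probes had a positive log2 fold change, 0.26 ± 0.21 and 0.24 ± 0.23, and neither passed (adjusted p = 0.938 for each by limma). Dsc2 stood at 0.88, 2.11 and 1.52 in sleep fragmented samples and at 1.69, 1.44 and 1.30 in controls. Its lowest and highest arrays both belonged to the sleep fragmented group, whose SD was 0.62 against 0.20 in controls. The log2 fold change was 0.02 ± 0.30 (95% interval -0.65 to 0.70), and the differences within positions were -0.82, 0.67 and 0.21.

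Cdh2 encodes N-cadherin, the cadherin that holds the adherens junctions of heart muscle together. Its brighter probe stood at 5.18, 4.79 and 5.08 in sleep fragmented samples and at 5.19, 5.02 and 4.94 in controls. The groups overlapped on both probes, with log2 fold changes of -0.03 ± 0.19 and -0.05 ± 0.21. Tjp1 encodes ZO-1, the scaffold that binds connexin 43 at the edge of gap junctions. It stood at 3.45, 3.51 and 3.65 in sleep fragmented samples and at 3.64, 3.47 and 3.45 in controls, the narrowest spread of the members. Its log2 fold change was 0.02 ± 0.17 (95% interval -0.37 to 0.41). With median scaling it was -0.19.

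**Figure D4:**
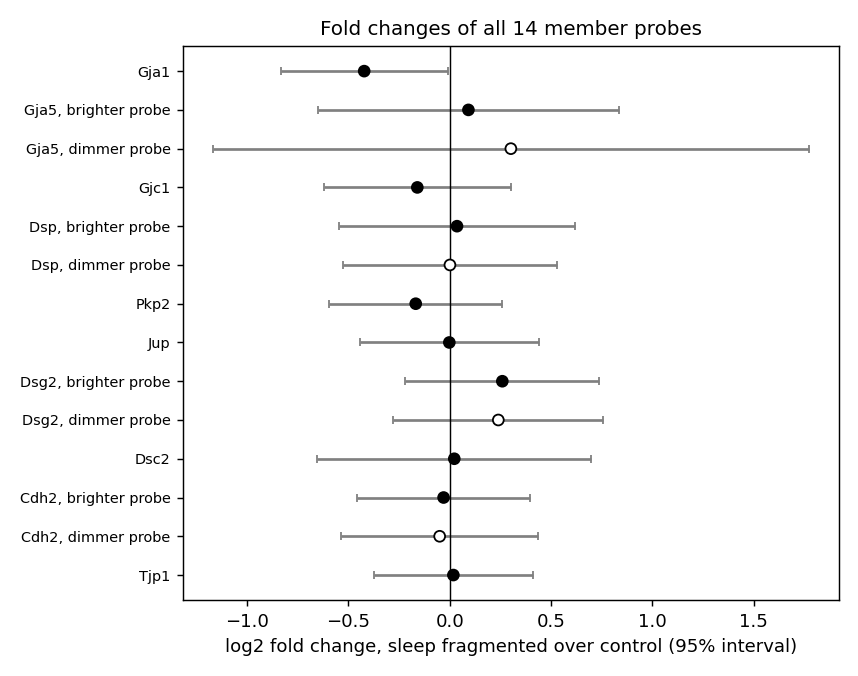
Log2 fold changes of all 14 member probes, sleep fragmented over control, with 95% intervals from limma (n = 3 arrays each). Filled circles mark the probe that stands for a gene and open circles its dimmer probe. The interval of Gja1 ends just below 0 at -0.0098, and the intervals of the other 13 probes include 0.

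The members did not follow each other as a set. Sleep fragmented replicate 2 was the lowest of the 6 arrays for 4 of the 10 genes and control replicate 2 for 3, while sleep fragmented replicate 3 was the highest for 3. Over the 6 arrays and of all member pairs, Jup and Cdh2 tracked most closely (Pearson r = 0.945), and Jup and Dsc2 ran most opposite (r = -0.83). Only the brightest probe of each gene was used, and the dimmer probes were not correlated. Gja1 tracked best with Pkp2 among the members (r = 0.719), but 649 of the 13884 other named genes followed it more closely. Among these arrays scan coincides with group and position with replicate number, and such values describe 6 arrays only. Among the 5 named genes closest to Gja1 over the 6 arrays were Olfr1368 (an olfactory receptor gene, r = 0.985), Rpe (an enzyme of the pentose phosphate pathway, r = 0.982), Tardbp (an RNA-binding protein gene, r = 0.980) and Thap6 (r = 0.968). The log2 fold change was -0.42 for Olfr1368, -0.48 for Rpe, -0.23 for Tardbp and -0.28 for Thap6 (adjusted p = 0.938 for each by limma). These genes were picked for following Gja1 over the same arrays, so negative values come with that choice.

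Of 123 related genes in 8 lists, 94 were measured, and by limma 0 passed the adjusted threshold in either direction. At an unadjusted p under 0.05, 2 were higher and 0 lower in sleep fragmented samples, against 2.96% of all named genes. The groups did not overlap for 7 of the 94, 4 higher (Ctnna1, Ctnna2, Nectin2 and Tgfb3) and 3 lower (Cav3, Flnc and Smurf2), a share of 7.45% against 7.62% of all named genes. The median log2 fold change of the 94 was 0.04, and 39 were negative.

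Among the other connexin and pannexin genes, 7 of 20 were measured, with a median log2 fold change of 0.05. Gja4, an endothelial connexin gene, stood at -0.38, -0.45 and -0.64 in sleep fragmented samples and at -0.51, -0.65 and -0.43 in controls, with a log2 fold change of 0.04 ± 0.18. Gja3, best known as a lens connexin gene, stood at -0.77, -1.41 and -1.24 in sleep fragmented samples and at -1.62, -2.17 and -1.40 in controls. The groups overlapped by a single pair of arrays, and its log2 fold change was 0.59 ± 0.26 (unadjusted p = 0.0478, adjusted p = 0.938 by limma). Panx2, a pannexin gene, had 0.18 ± 0.28. Of the 20 genes that move, modify or scaffold connexin 43, 19 were measured, and 12 had a negative log2 fold change, with a median of -0.07. Src, a tyrosine kinase that phosphorylates connexin 43, had 0.47 ± 0.31, and Cav3, the muscle caveolin gene, had -0.23 ± 0.18 with all sleep fragmented arrays below all controls.

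Of the other desmosomal genes, 6 of 12 were measured, all with a positive log2 fold change and a median of 0.10. The plakophilin gene Pkp3 had 0.20 ± 0.34 and Ppl (periplakin) 0.22 ± 0.28. Of the adherens junction genes, 15 of 20 were measured and 12 were positive, with a median of 0.17. Ctnna2, an alpha-catenin gene best known from the nervous system, stood at -2.24, -2.51 and -2.61 in sleep fragmented samples and at -3.30, -3.56 and -2.67 in controls. Its groups did not overlap, and the log2 fold change of 0.72 ± 0.25 had an unadjusted p of 0.0184 and an adjusted p of 0.938 by limma. Cdh4, another classical cadherin gene, had -0.51 ± 0.25. The heart's own alpha-catenins Ctnna1 and Ctnna3 had 0.22 ± 0.17 and 0.17 ± 0.22 (Ctnna3 well above background on 2 of the 3 sleep fragmented arrays), and Ctnnb1 (beta-catenin) had -0.04 ± 0.18. These 3 were chosen after their values were seen.

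The remaining lists gave small differences as well. Tight junction and related genes had a median of 0.05 over 13 measured members, with Magi1, a scaffold gene, at 0.37 ± 0.20 and Cxadr, a cell adhesion receptor of the disc, at -0.35 ± 0.23. Genes that anchor actin at the disc had a median of -0.09 over 15 members. Among them Flnc (filamin C) stood at 3.28, 2.90 and 3.18 in sleep fragmented samples and at 3.32, 3.47 and 3.59 in controls. Its arrays did not overlap, with a log2 fold change of -0.34 ± 0.19, and Xirp2, an actin-binding disc protein gene, had -0.37 ± 0.22. Channel and ankyrin genes of the disc had a median of 0.04 over 13 members, with Kcnd3 at -0.26 ± 0.18 and Kcnj2 at -0.35 ± 0.27, both potassium channel genes; Kcnj2 was well above background on 2 of the 3 sleep fragmented arrays. Other genes linked to human arrhythmogenic cardiomyopathy had a median of -0.06 over 8 members, with Tgfb3, a growth factor gene, at 0.51 ± 0.23. Scaling by the median moved the median of all named genes from 0.05 to -0.16, and the medians of all 8 lists were then negative.

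**Figure D5:**
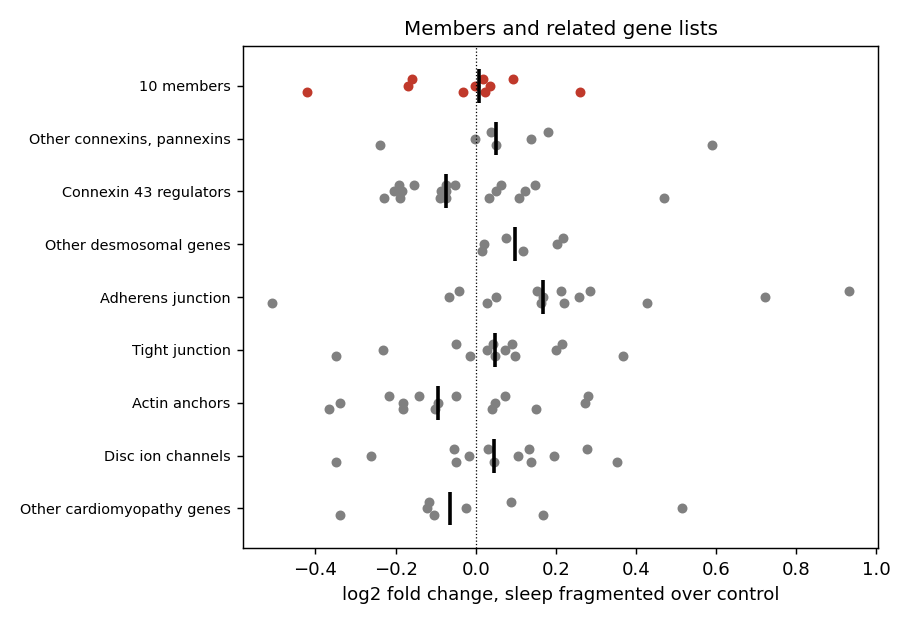
Log2 fold changes (sleep fragmented over control) of the 10 members in red and of the measured genes of 8 related lists in grey, 1 point per gene, with the median of each list as a vertical bar. The list medians lie between -0.09 and 0.17, and Gja1, at -0.42, is the lowest of the 10 members.

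Marker lists of other cells differed between the arrays. Relative to the control mean, mesothelial markers (4 of 8 measured) ranged from 0.14 to 1.26 in sleep fragmented samples and from -0.15 to 0.10 in controls, and fibroblast markers (8 of 8) from -0.057 to 0.77 in sleep fragmented samples and from -0.12 to 0.14 in controls. All 3 sleep fragmented arrays lay above all controls for the mesothelial list, though none of its 4 genes was without overlap. In both lists sleep fragmented replicate 2 was the highest array, as it was for Dsc2. Epithelial markers (5 of 7) ranged from -0.05 to 0.50 in sleep fragmented samples and from -0.46 to 0.45 in controls. Control replicate 2 was lowest, as it was for the brighter probes of Dsp, Dsg2 and Gja5. Their dimmer probes differed: that of Dsp was lowest on sleep fragmented replicate 2, and those of Dsg2 and Gja5 on control replicate 1. Endothelial markers (14 of 14) ranged from -0.02 to 0.12 in sleep fragmented samples and from -0.10 to 0.07 in controls, and smooth muscle and pericyte markers (8 of 8) from -0.25 to 0.06 in sleep fragmented samples and from -0.11 to 0.18 in controls. Schwann cell and nerve markers (7 of 7) ranged from -0.0049 to 0.60 in sleep fragmented samples and from -0.18 to 0.13 in controls, and leukocyte markers (6 of 8) from -0.35 to 0.05 in sleep fragmented samples and from -0.62 to 0.56 in controls. Erythroid markers (5 of 6) ranged from 0.68 to 2.31 in sleep fragmented samples and from -0.18 to 0.12 in controls, so these groups did not overlap either; 4 of the 5 had an unadjusted p under 0.05 and 0 passed after adjustment (limma). The part of these cells in the members' values was not tested.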

How the data were processed

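Single-colour Agilent arrays (design 026655) were read by a scanner whose spot tables hold intensity values on a linear scale, already background-subtracted by Feature Extraction 11.0.1.1 per the file headers, with other columns that mark spots as above background, saturated or outlying; version 10.5.1.1 stands in the submitters' processing notes instead. A table of log2 values that the authors deposited was an alternative; how it was made is not stated. The median was 5.53 in every column, and each column tracked that array's own log2 signal (r at least 0.998, slope 0.93 to 1.05). The table is thus on a log2 scale and not centred by gene. Its log2 fold changes for Gja1 (-0.367) and Gja5 (-0.120) were close to those with quantile normalization (-0.368 and -0.121). These runs are therefore not separate checks.

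Control spots and spots marked as outliers (180 to 240 on each array) were dropped, log2 signals were averaged by probe, and each array's 75th percentile was subtracted. A probe was kept if all arrays of 1 or both groups had it well above background, which left 25220, of which 25219 could be tested. No spot was saturated (0 on each array). Probes were named through RefSeq accessions in a gene table of GRCm38.p6 (27234 named); the build of the array design is not given, so no probe positions are printed, and the promoter windows are placed on GRCm38.p6 by RefSeq. The kept probe with the brightest mean stands for a gene. Groups were compared with limma 3.58.1 (lmFit, eBayes) in R 4.3.3, by two-sided tests whose p-values were adjusted (Benjamini-Hochberg) across every tested probe; ± after a log2 fold change is the moderated standard error. The fit was tested on simulated data. The number of arrays limits the precision.

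The named genes are all 10 members, the 2 genes of each related list with the smallest p, and the 5 genes most correlated with Gja1 over the 6 arrays, with clone and predicted names left out; 1 of these 5 is not reported here. Gja4, Ctnna1, Ctnna3, Ctnnb1 and the related genes whose groups did not overlap were added after their values were seen. The members, lists and this rule were chosen with earlier results of these data known.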

Additional observations from a re-analysis of the deposited data

How the results depend on the processing

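Gja1 kept its negative log2 fold change under every alternative run (-0.63 to -0.33, adjusted p of 0.408 or more by limma). Its groups stayed apart with quantile normalization, median scaling, normexp and the authors' deposited table. The other runs used the same levels or left out arrays, so they could not make the Gja1 groups overlap. On the scale relative to muscle markers, chosen after seeing the data, the groups did overlap. Minus the median of all named genes it was -0.47 as reported, -0.37 with quantile normalization and -0.47 with median scaling. Runs that changed only the filter on dim probes, limma's prior or the block left every log2 fold change as reported. They could not turn a sign, though they count among the values below. Like Gja1, the genes Gjc1, Pkp2 and Dsg2 kept their sign, while 24 of 169 values of the members turned sign. Those were Gja5 with quantile normalization (-0.12), median scaling (-0.12), the authors' deposited table (-0.12) and array weights (-0.053); Dsp with median scaling (-0.17) and normexp (-0.062); Dsc2 with median scaling (-0.19), normexp (-0.046) and array weights (-0.084); Tjp1 with median scaling (-0.19); and Jup with normexp (0.050). The other values that turned came from leaving out single arrays, which gave -0.28 to 0.37 for Gja5, -0.18 to 0.16 for Dsp, -0.12 to 0.14 for Jup, -0.28 to 0.33 for Dsc2, -0.11 to 0.082 for Cdh2 and -0.037 to 0.076 for Tjp1. The cause was not tested. Of all probes, 3 passed with normexp and 4 with the replicate number as a block, which here is the same fit as array position as a block (4), against 0 under the other settings; 0 member probes passed under any. Same-numbered arrays had deviations from their group means correlated with r of 0.06, 0.55 and 0.21. Arrays of different numbers had r from -0.50 to 0.36. The reported fit used no block, and these values do not settle whether the numbers pair the samples. At an unadjusted p under 0.05 there was 1 member probe with the block, as without it. Of all probes there were 2018 with the block and 735 without it. That count of members was 0 without the filter on dim probes and 0 to 1 with single arrays left out. The members without overlap numbered 1 to 3 with single arrays left out. There were 2 without sleep fragmented replicate 3 (Pkp2 lower) and 3 without control replicate 3 (Gjc1 lower, Dsg2 higher). Leaving out an array can only keep or raise such a count, for any gene. The share over all named genes was not counted for these fits, so the added members are a description only. Without control replicate 3, 11.9% of all probes had an unadjusted p under 0.05, against 2.91% with all arrays.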
